A study of Mus musculus with 6 samples.

Results

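A set of 7 major urinary protein genes, Mup3, Mup7, Mup11, Mup12, Mup17, Mup20 and Mup21, was followed in livers of HFD-fed mice given vehicle or esculetin. They were chosen by symbol, as the rows of the count table whose Ensembl identifiers carry these names in the GENCODE annotation of GRCm39, and make up 7 of 55357 rows. All 7 had enough counts to be tested. The remainder of the family in the table comprised 15 other protein-coding Mup genes and 27 Mup pseudogenes, and these rows were used for comparison because near-identical copies can exchange reads.

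Each group held 3 liver RNA-seq libraries from WT C57BL6/J male mice aged 8 to 9 weeks, and each library pooled 2 mice. Mice were gavaged daily for 7 days with 2.5% Tween-80 (vehicle) or with esculetin, a plant coumarin, for which the sample titles and the protocol state 180 mg/kg/d and the treatment field states 90 mg/kg/d. Both groups ate a control diet with 10% kcal from fat for 4 days and then a diet with 60% kcal from fat for 3 days. Assigned counts ranged from 27957713 to 31889710 in vehicle libraries and from 32883985 to 34920922 in esculetin libraries, so depth differed between the groups without overlap. The summed level of 8 hepatocyte markers was 86790 to 91282 CPM in vehicle livers and 83384 to 90269 CPM in esculetin livers. CPM are counts per 1000000 assigned counts, scaled here with TMM factors, which remove differences in composition between libraries.

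Major urinary proteins are small secreted carriers of the lipocalin family. Mouse liver makes them in large amounts, males more than females, and the kidney passes them into urine, where they hold volatile pheromones and mark individual identity. Their transcription is known to depend on pulsatile growth hormone acting through STAT5B, and on androgens, glucocorticoids and thyroid hormone. The genes lie in a single cluster, in which the central genes are near-identical copies of each other and the genes at the edges are more diverged.

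The cluster ran from Mup4 to Mup21 at chr4:59956804-62069175 (GRCm39), and all 7 genes are annotated as protein-coding on the minus strand. The table lists them as ENSMUSG00000066154 (Mup3), ENSMUSG00000073842 (Mup7), ENSMUSG00000073834 (Mup11), ENSMUSG00000094793 (Mup12), ENSMUSG00000096688 (Mup17), ENSMUSG00000078672 (Mup20) and ENSMUSG00000066153 (Mup21). Mup7 lies at chr4:60066445-60070490, Mup11 at chr4:60614440-60618509, Mup12 at chr4:60693376-60697325 and Mup17 at chr4:61510140-61514185. Mup3 at chr4:61947447-62005620, Mup20 at chr4:61968464-61972395 and Mup21 at chr4:62066056-62069175 are toward the distal edge. The annotated Mup3 locus spans Mup20 without sharing exon bases with it, and shares 26 exon bases with the pseudogene Mup-ps21. The stretch of coding exon 3 with the most differences between the 7 genes is shown because it sets the diverged members beside the near-identical ones. Of its 60 bases 20 varied, and capitals mark bases that differ from the most common base among the 7 genes (minus strand of GRCm39, 5′ to 3′).
Mup3, chr4:62004197-62004256: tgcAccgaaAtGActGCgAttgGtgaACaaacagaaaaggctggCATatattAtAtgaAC
Mup21, chr4:62067592-62067651: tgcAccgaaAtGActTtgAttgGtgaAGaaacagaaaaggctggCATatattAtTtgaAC
Mup20, chr4:61970874-61970933: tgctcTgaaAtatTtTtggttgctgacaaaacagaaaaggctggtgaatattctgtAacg
Mup7, chr4:60068902-60068961: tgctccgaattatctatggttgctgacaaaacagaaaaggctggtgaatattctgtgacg
Mup17, chr4:61512589-61512648: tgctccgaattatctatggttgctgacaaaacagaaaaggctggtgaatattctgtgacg
Mup11, chr4:60616888-60616947: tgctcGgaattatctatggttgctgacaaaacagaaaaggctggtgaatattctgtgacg
Mup12, chr4:60695805-60695864: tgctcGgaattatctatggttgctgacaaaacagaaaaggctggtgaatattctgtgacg

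In this stretch Mup7 was identical to Mup17, and Mup11 was identical to Mup12, whereas Mup3 carried 17 bases that differ from the most common base, Mup21 carried 16 and Mup20 carried 5. Over the whole coding sequence, Mup7 and Mup12 were 99.3% identical, Mup11 was 99.8% identical to Mup18 and Mup17 was 99.3% identical to Mup9. Mup3 and Mup21 were each other's closest relative at 93.1%, and Mup20 was at most 91.2% identical to any family gene. Of the 150-base stretches of the Mup3 and Mup21 transcripts, 100% were found in no other place, against 60.2% for Mup17, 40.1% for Mup20, 39.4% for Mup7, 26.2% for Mup11 and 24.6% for Mup12. For Mup20, 55.6% of the stretches were shared with a copy annotated as Gm70526, for which no count was used here. How the deposited counts treated reads that map to several genes is not given in the sources used here, so the values of Mup7, Mup11, Mup12, Mup17 and Mup20 are uncertain to that extent.

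The 7 genes covered a wide range of levels. Per kilobase of transcript, Mup3 had 16967 ± 1181 CPM in vehicle livers (mean ± SD, n = 3), Mup7 8569 ± 3015, Mup20 5052 ± 1132, Mup17 1130 ± 655, Mup21 624 ± 119, Mup11 495 ± 196 and Mup12 173 ± 89. The order was the same in esculetin livers. The ranges of Mup17 and Mup21, and of Mup21 and Mup11, overlapped in both groups, and those of Mup7 and Mup20 overlapped in esculetin livers. The transcript used had 1781 bases for Mup7 and 922 for Mup3, which widens their gap per kilobase. In CPM the vehicle means were 15643 for Mup3 and 15261 for Mup7. In vehicle library 3, Mup7 was higher, at 21455 CPM against 16830. By mean CPM, Mup3 ranked 3 and Mup7 ranked 8 among all genes of the table. Together the 7 genes took 2.61 to 4.64% of the assigned counts of a library.

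Esculetin livers had lower levels of Mup11, Mup17 and Mup21, and fitted fold changes of Mup3 and Mup20 near 1. A gene was called changed with an unadjusted p under 0.05 and a fold change over 1.5 in edgeR's quasi-likelihood test, the thresholds the study used. By this rule 3 of 7 genes were called, all lower in esculetin, whereas 1.76% of the 14433 genes tested were called lower and 3.13% in either direction. None of the 7 passed a Benjamini-Hochberg adjusted p of 0.05 over all genes in edgeR (0 of 7, beside 0.0416% of all genes) or in limma-voom (0 of 7). In DESeq2 1, Mup21, passed. Over all genes, 196 passed in DESeq2, against 6 in edgeR and 5 in limma-voom. At an unadjusted p under 0.05 alone there were the same 3 of 7 in edgeR, beside 11.9% of all genes. The median log2 fold change of the 7 genes was -0.53, beside -0.008 for all tested genes. In bulk liver RNA, fewer expressing cells and less RNA per cell cannot be told apart.

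**Figure D1:**
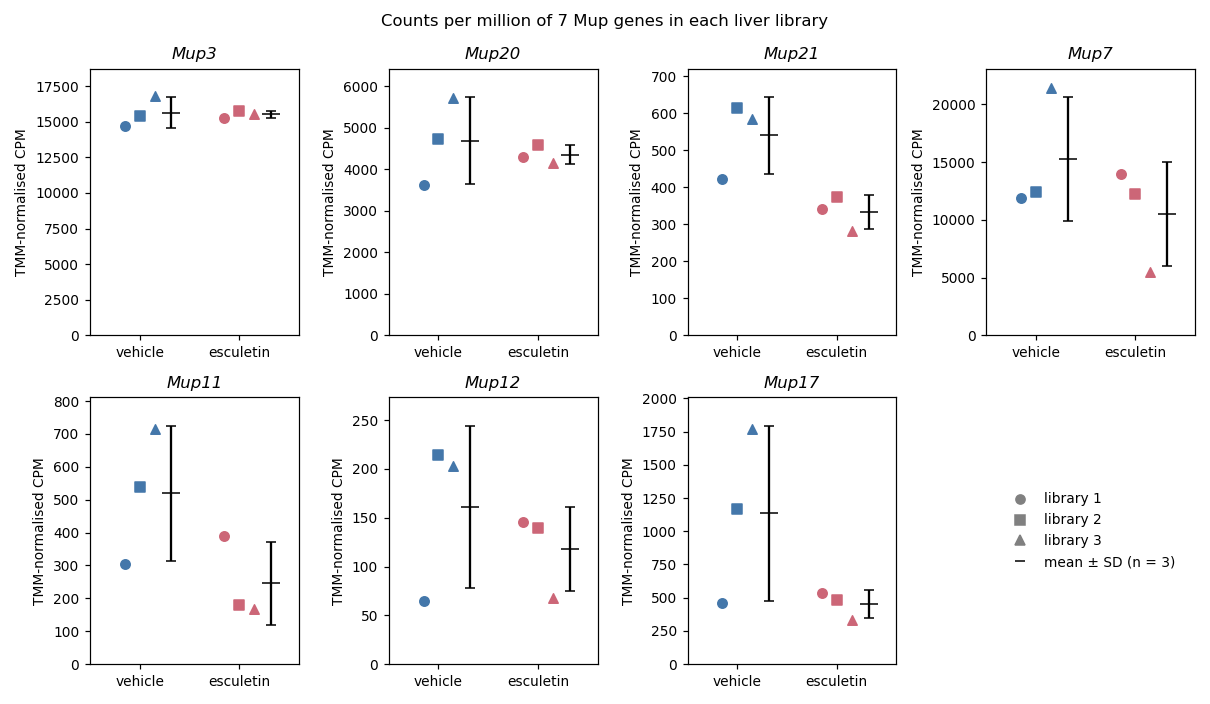
TMM-normalised CPM (y axis, from 0) of each of the 7 Mup genes in the 3 vehicle and 3 esculetin libraries, with the mean ± SD beside the points. The Mup21 points of the groups do not overlap, whereas for the other 6 genes they do.

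Mup21 showed the clearest separation. It had 422, 613 and 584 CPM in vehicle libraries 1, 2 and 3, and 341, 374 and 282 CPM in esculetin libraries 1, 2 and 3. Every esculetin library was below every vehicle library, a separation in the lower direction that 8.24% of tested genes showed. The level fell by 0.70 on the log2 scale (SE 0.15, adjusted p = 0.142 in edgeR), or 1.62-fold, from 540 ± 103 to 332 ± 46.3 CPM. The adjusted p was 0.000262 in DESeq2, 0.143 in limma-voom and 0.0258 in edgeR without vehicle library 1, and over all alternatives it ranged from 1.13e-07 without a filter to 0.473 without vehicle library 2. Mup21 was called in each of them except at a fold change over 2.

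Mup3, the member with the highest mean CPM, had a fold change near 1. Vehicle libraries had 14691, 15409 and 16830 CPM, and esculetin libraries had 15274, 15749 and 15557 CPM. All esculetin values lay inside the vehicle range. The log2 fold change was -0.01 (SE 0.083, adjusted p = 0.975 in edgeR) with a 95% interval of 0.873 to 1.13-fold.

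Mup20 encodes darcin, the pheromone in male urine that attracts females. It had 3619, 4728 and 5718 CPM in vehicle libraries and 4303, 4593 and 4144 CPM in esculetin libraries. Here too the esculetin values lay inside the vehicle range. The log2 fold change was -0.11 (SE 0.14, adjusted p = 0.813 in edgeR), with a 95% interval of 0.741 to 1.16-fold. Its sign turned without vehicle library 3, at 0.06.

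Mup17 and Mup11, both central near-identical genes, fell but their groups overlapped. Mup17 had 459, 1171 and 1773 CPM in vehicle libraries and 539, 483 and 332 CPM in esculetin libraries. Vehicle library 1 lay below 2 of the 3 esculetin libraries. The Mup17 level fell by 1.33 on the log2 scale (SE 0.39, adjusted p = 0.242 in edgeR), or 2.51-fold. Without vehicle library 3 the value was -0.85 and Mup17 was still called. Without vehicle library 1 it was -1.70 (adjusted p = 0.0178 in edgeR). Mup11 had 305, 538 and 715 CPM in vehicle libraries and 390, 180 and 167 CPM in esculetin libraries. Vehicle library 1 lay below esculetin library 1. The Mup11 level fell by 1.08 on the log2 scale (SE 0.35, adjusted p = 0.284 in edgeR), or 2.11-fold. Without vehicle library 3, Mup11 was no longer called (log2 fold change -0.78).

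Mup7, second in mean level, varied as much within the groups as between them. It had 11927, 12401 and 21455 CPM in vehicle libraries and 13969, 12206 and 5445 CPM in esculetin libraries. A high vehicle library 3 and a low esculetin library 3 stood apart from 4 libraries that lay close together. The log2 fold change was -0.53 (SE 0.32, adjusted p = 0.558 in edgeR), with a 95% interval of 0.418 to 1.14-fold. It was -0.20 without vehicle library 3, -0.22 without esculetin library 3 and -0.79 without esculetin library 1, where Mup7 was called.

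Mup12, the lowest of the 7, had 65.2, 214 and 203 CPM in vehicle libraries and 146, 139 and 68.1 CPM in esculetin libraries. A low library was present in each group. The log2 fold change was -0.45 (SE 0.40, adjusted p = 0.708 in edgeR), with a 95% interval of 0.394 to 1.37-fold. Without vehicle library 1 it was -0.82 and Mup12 was called, whereas it was -0.18 without vehicle library 2, -0.24 without vehicle library 3 and -0.17 without esculetin library 3.

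The spread between libraries differed between members. In vehicle livers the SD of log2 CPM was 0.10 for Mup3, 0.29 for Mup21 and 0.33 for Mup20, against 0.47 for Mup7, 0.62 for Mup11, 0.97 for Mup12 and 1.0 for Mup17. For the 1347 genes with a mean of at least 100 CPM, the median SD in vehicle livers was 0.093 and the 95th percentile was 0.38. All 4 near-identical central members were therefore above that percentile, and Mup3, Mup20 and Mup21 were below it. In esculetin livers the SD was 0.022 for Mup3 and 0.075 for Mup20, and 0.74 for Mup7, beside a median of 0.089. The 4 members with the widest spread in vehicle livers all shared sequence with paralogs. Mup20 also did, with 40.1% of its stretches found in no other place, and spread at most 1.58-fold. Outside the 7, Mup-ps20 and Mup6 had 100% of their stretches in no other place. They spread 5.05-fold in vehicle and 3.44-fold in esculetin livers, respectively. Mup6 was far lower in level than the 7 genes, with 17, 63 and 49 counts in esculetin libraries 1, 2 and 3. The part of read assignment in that spread was not tested.

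**Figure D2:**
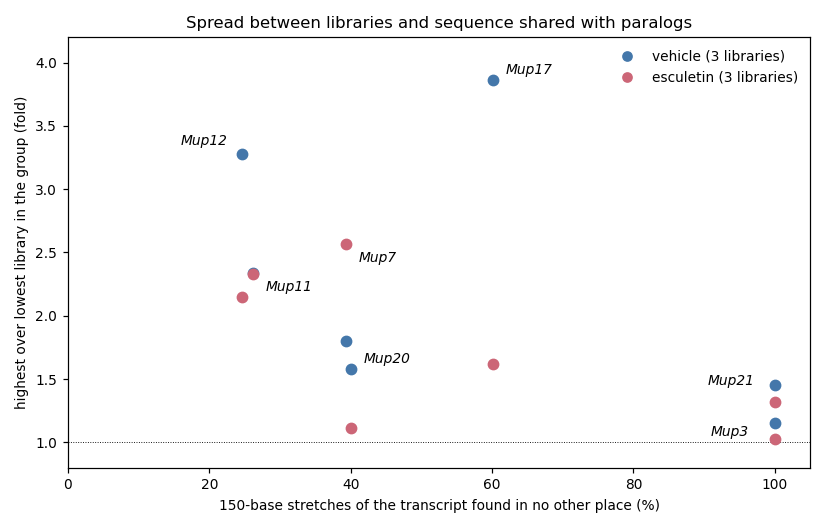
Highest over lowest library within each group of 3 (y axis, fold) against the percentage of 150-base transcript stretches found in no other place (x axis), with 1 point per gene and group. Mup3 and Mup21, at 100%, spread at most 1.45-fold, whereas Mup17, at 60.2%, spread 3.86-fold in vehicle livers, and Mup20, at 40.1%, spread at most 1.58-fold.

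Because near-identical copies can exchange reads, the genes were also summed within each library. The 7 genes together had 31488, 35075 and 47278 CPM in vehicle libraries and 34964, 33724 and 25996 CPM in esculetin libraries. The groups overlapped, with vehicle library 3 highest and esculetin library 3 lowest. The log2 ratio of the group means was -0.27, beside an SD of log2 CPM of 0.30 within vehicle and 0.23 within esculetin livers, so the difference lay within the SD of vehicle livers and slightly above that of esculetin livers. It was -0.08 without vehicle library 3, -0.14 without esculetin library 3 and -0.38 without vehicle library 1. The near-identical Mup7, Mup11, Mup12 and Mup17 summed to 17075 ± 6173 CPM in vehicle and 11355 ± 4738 CPM in esculetin livers, with overlapping groups. The diverged Mup3, Mup20 and Mup21 summed to 20871 ± 2203 CPM and 20206 ± 443 CPM (mean ± SD, n = 3). Over all 49 Mup genes and pseudogenes the log2 ratio was -0.33, and over the 22 protein-coding genes it was -0.34. The ratio over all 49 was -0.14 without vehicle library 3, -0.20 without esculetin library 3 and -0.47 without vehicle library 1. Of these sums, the 15 other protein-coding genes had the lowest ratio, with 6815 ± 2269 CPM in vehicle and 3909 ± 1398 CPM in esculetin livers (log2 ratio -0.80), and their groups also overlapped.

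**Figure D3:**
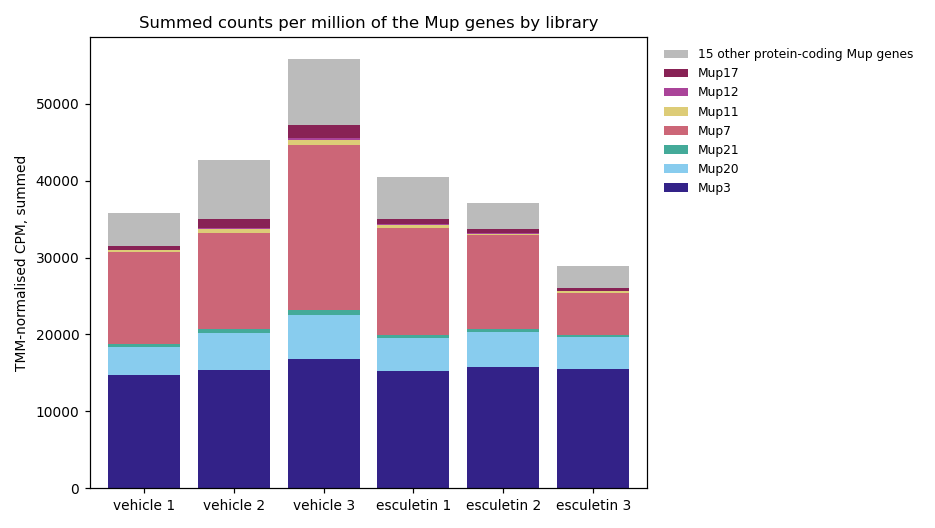
Stacked TMM-normalised CPM (y axis, from 0) of the 7 Mup genes and of the 15 other protein-coding Mup genes in each of the 6 libraries. The Mup3 segment is nearly level, while the Mup7 segment runs from 21455 CPM in vehicle library 3 to 5445 CPM in esculetin library 3.

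Shares of the 7-gene sum do not depend on library scaling. Mup3 contributed 46.7, 43.9 and 35.6% in vehicle libraries and 43.7, 46.7 and 59.8% in esculetin libraries. Mup7 contributed 37.9, 35.4 and 45.4%, and 40, 36.2 and 20.9%. These 2 genes thus supplied most of the sum in every library. Mup21 was the single member whose shares did not overlap between the groups, at 1.34, 1.75 and 1.23% in vehicle libraries and 0.975, 1.11 and 1.09% in esculetin libraries. Its p was 0.1 in a two-sided exact permutation test of 3 against 3 libraries, which is the smallest p this design allows, and 0.35 after adjustment over the 7 shares. The p of the other 6 shares ranged from 0.2 to 0.8 in the same exact permutation test.

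Of the other family rows, 29 of 42 had enough counts to be tested. By the same rule 8 were called lower, beside 1.76% of all genes, and 0 higher, beside 1.37%, in edgeR, and 9 had an unadjusted p under 0.05, beside 11.9%. None passed the adjusted p in edgeR or limma-voom, and Mup15 passed in DESeq2, where 196 genes passed over the whole table. Their median log2 fold change was -0.49, beside -0.008 for all tested genes, and 25 of 29 were below 0, beside 51.5% of all tested genes. Of the protein-coding genes, Mup15, a central gene, had 742, 1650 and 1642 CPM in vehicle libraries and 570, 456 and 170 CPM in esculetin libraries, and it fell by 1.75 on the log2 scale (SE 0.41, adjusted p = 0.172 in edgeR). Its groups did not overlap. Mup1 fell 1.89-fold and Mup9 1.82-fold, each with overlapping groups, and both kept their calls in the 15 alternatives at the same fold threshold. Mup16 fell 2.3-fold with overlapping groups, but it was not called in DESeq2, in limma-voom, with the replicate block, without esculetin library 3 or without vehicle library 3 (log2 fold change -0.63 against -1.20). Only 3.03% of the 150-base stretches of Mup9 are found in no other place. Mup8 had a log2 fold change of -3.23 (SE 0.87, adjusted p = 0.216 in edgeR), but this rested on vehicle library 2, with 855 CPM beside 42.8 and 131 CPM in the other two and 27.7 to 43.1 CPM in esculetin libraries. Without vehicle library 2 the value was -1.25 and Mup8 was still called.

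Mup14, at 2728, 3796 and 5227 CPM in vehicle and 3867, 2028 and 2077 CPM in esculetin libraries, was the most abundant family gene outside the 7 and was not called (log2 fold change -0.56, adjusted p = 0.465 in edgeR). The log2 fold changes of the other uncalled protein-coding genes were -0.73 for Mup19, -0.63 for Mup18, -0.49 for Mup6, -0.28 for Mup13, -0.22 for Mup2, -0.02 for Mup22 and 0.22 for Mup10. Of these, Mup18 and Mup19, and also Mup14, were called without vehicle library 1 (-0.90, -1.0 and -0.76), and Mup19 and Mup14 without esculetin library 1 (-1.10 and -0.93). Without vehicle library 3 the values of Mup18, Mup19 and Mup14 were -0.16, -0.16 and -0.29. Mup4 and Mup5, with 15 and 27 counts over the 6 libraries, were not tested. Of 16 pseudogenes tested, Mup-ps6, Mup-ps17 and Mup-ps20 were called lower, beside 1.76% of all genes, at 213, 240 and 7090 counts over the 6 libraries, and the log2 fold changes of the other 13 ranged from -0.63 for Mup-ps4 to 0.46 for Mup-ps2. Mup-ps20 (log2 fold change -1.31) was not called in DESeq2, in limma-voom, with the replicate block or with any of 4 libraries left out, and its value was -0.89 without vehicle library 2. The calls of Mup-ps17 (-1.29) and Mup-ps6 (-1.01) were lost with any of 4 and 3 libraries left out, and Mup-ps17 was at -1.97 without esculetin library 1. Among the pseudogenes not tested, 5 had 0 counts.

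**Figure D4:**
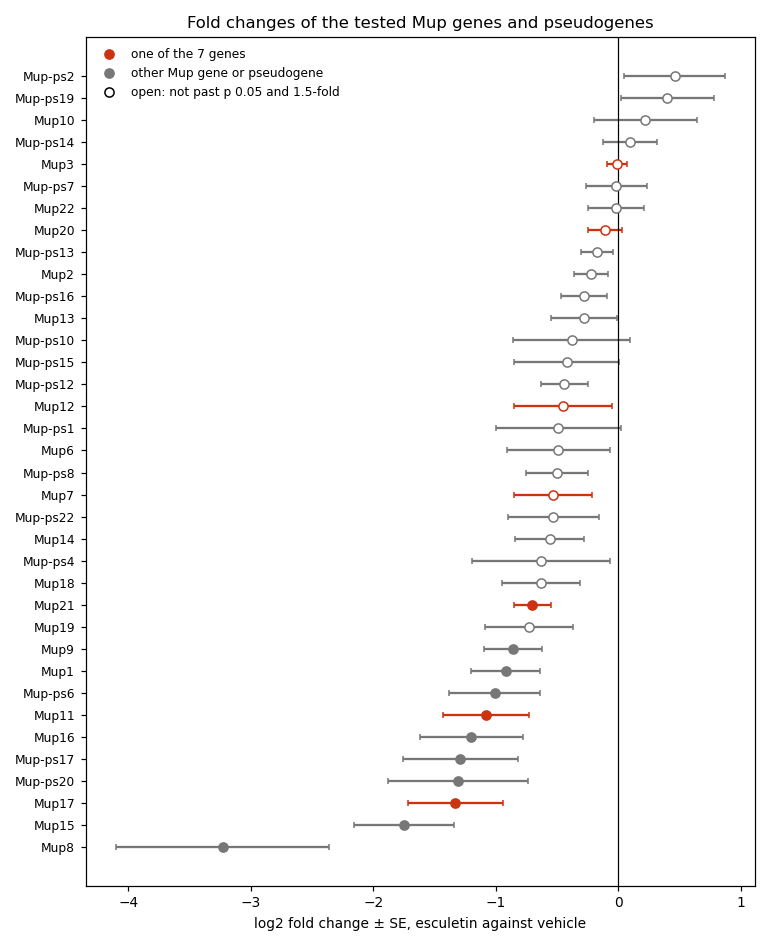
Log2 fold change ± SE from edgeR (x axis, esculetin against vehicle) for the 36 Mup genes and pseudogenes that were tested, with the 7 genes in red and called genes as filled points. The called genes all lie to the left, with Mup17 at -1.33, Mup15 at -1.75 and Mup8 at -3.23, and Mup3 lies at -0.01.

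Genes that regulate Mup transcription mostly did not pass the rule. Of 21 described here, 20 were tested, 1 was called higher, beside 1.37% of all genes, and 0 were called lower, beside 1.76%. In edgeR 1 had an unadjusted p under 0.05 in each direction, beside 11.9% of all genes in either direction. The median log2 fold change was -0.0035. Cebpb, which encodes the transcription factor C/EBPβ, had 24.9, 35.6 and 30.2 CPM in vehicle libraries and 53.7, 43.4 and 40.3 CPM in esculetin libraries. Its groups did not overlap, and it rose by 0.60 on the log2 scale (SE 0.14, adjusted p = 0.175 in edgeR). The adjusted p of Cebpb passed 0.05 in DESeq2, and its fold change was under 1.5 without vehicle library 1 or without esculetin library 1 (0.47 on the log2 scale in both) and under scaling by total counts (0.57).

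Values for genes of the growth hormone axis and for other regulators differed in size and in how far they rested on single libraries. The log2 fold change was -0.15 (SE 0.075, adjusted p = 0.464 in edgeR) for Ghr, the growth hormone receptor gene, and 0.00 (SE 0.087) for Stat5b, its main effector in male liver. It was 0.02 (SE 0.12) for Zhx2, a zinc finger and homeobox repressor, 0.11 (SE 0.11) for Hnf4a, a hepatocyte master regulator, and -0.07 (SE 0.15) for Thrb, a thyroid hormone receptor gene. Nr3c1, the glucocorticoid receptor gene, had a log2 fold change of -0.17 (SE 0.074, adjusted p = 0.399 in edgeR), below the fold threshold. For Ghr and for Nr3c1 every esculetin library lay below every vehicle library, a separation that 8.24% of tested genes showed. Bcl6, a male-biased repressor that competes with STAT5, had 88.2, 106 and 20.4 CPM in vehicle libraries and 55.6, 21.9 and 30.3 CPM in esculetin libraries. It was not called (log2 fold change -1.0, SE 0.51, adjusted p = 0.481 in edgeR), and its 95% interval ran from 0.228 to 1.1-fold. Bcl6 was called without a filter, without vehicle library 3 (-1.43) and without esculetin library 1 (-1.46), and its value was -0.60 without vehicle library 2. Cish and Socs2, both feedback inhibitors of cytokine signalling, had log2 fold changes of -0.90 (SE 0.91, adjusted p = 0.748 in edgeR) and 0.64 (SE 0.65, adjusted p = 0.749 in edgeR) with all 6 libraries. Both changed sign and were called with 1 library left out, Cish at 1.42 without vehicle library 3 and Socs2 at -0.94 without esculetin library 3. Without a filter both were called in their first direction (-0.89 and 0.65). Both genes were chosen with their values known. Cux2, a female-biased repressor, had 35 counts over the 6 libraries and was not tested.

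Other liver genes that are higher in males than in females were compared because they share the growth hormone control of the Mup genes. Of 16 such genes, 7 were called lower in esculetin, beside 1.76% of all genes, and 0 higher in edgeR (11 had an unadjusted p under 0.05, beside 11.9% of all genes). The adjusted p was passed by 0 in edgeR, by 3 in DESeq2 and by 0 in limma-voom. Over all genes, 6, 196 and 5 passed in these tools. The median log2 fold change was -0.45, and 15 of 16 genes were below 0. C6, a terminal complement component, had 310, 500 and 500 CPM in vehicle libraries and 264, 287 and 232 CPM in esculetin libraries, and it fell 1.67-fold (adjusted p = 0.161 in edgeR) without overlap of the groups. Elovl3, a fatty acid elongase, had 77.6, 81.7 and 60.9 CPM and then 38.5, 59.8 and 37.5 CPM, and it fell 1.62-fold (adjusted p = 0.203 in edgeR), also without overlap. Without esculetin library 3 its fold change was under 1.5 (-0.58 on the log2 scale).

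Some of these genes had the same low vehicle library as Mup17. Selenbp2, a selenium-binding protein gene, had 633, 1555 and 1650 CPM in vehicle libraries and 695, 758 and 475 CPM in esculetin libraries, and it fell 1.99-fold (adjusted p = 0.262 in edgeR). Cyp7b1, an oxysterol hydroxylase, had 270, 460 and 517 CPM and then 258, 285 and 157 CPM, and it fell 1.78-fold (adjusted p = 0.255 in edgeR). In both genes vehicle library 1 lay inside the esculetin range. Ugt2b38, a glucuronosyltransferase, fell 1.53-fold, but it was not called in limma-voom, with the replicate block, without vehicle library 2, without esculetin library 3 or without vehicle library 3 (log2 fold change -0.38 against -0.61). Moxd1, a monooxygenase-like gene, was called with 0.477, 7.92 and 33.8 CPM in vehicle libraries and 0.684, 0.115 and 0 CPM in esculetin libraries. Its counts were low in vehicle library 1, which lay inside the esculetin range, and in all esculetin libraries. Its log2 fold change was -5.73, and -3.99 without vehicle library 3. Moxd1 was not called in limma-voom.

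**Figure D5:**
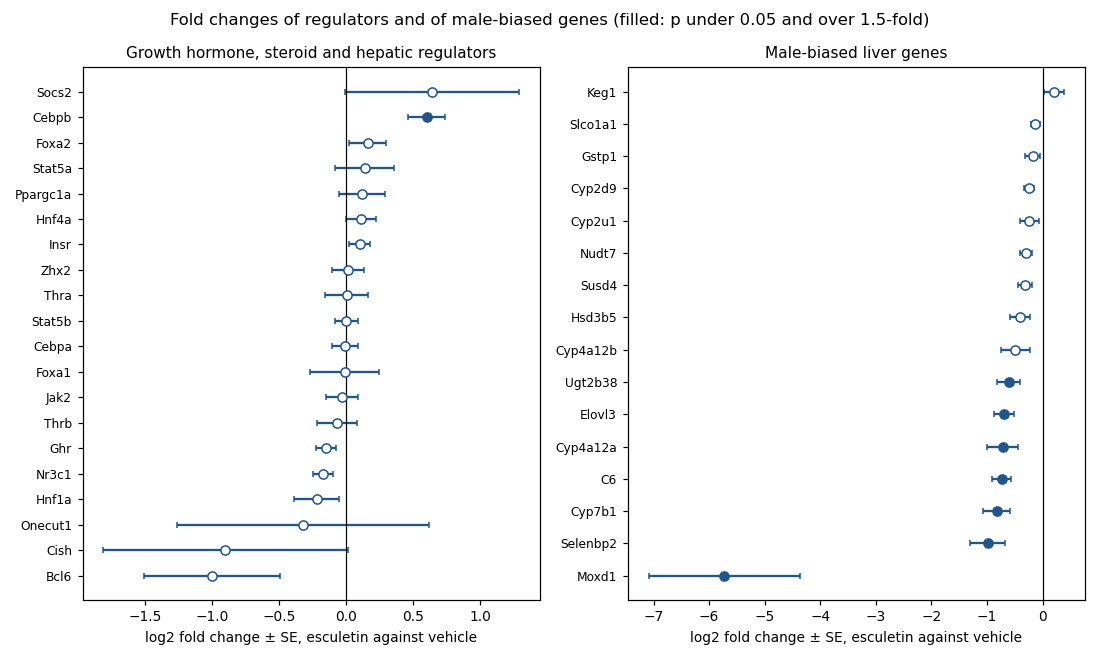
Log2 fold change ± SE from edgeR (x axis, esculetin against vehicle) for 20 tested regulators of Mup transcription (left) and 16 male-biased liver genes (right), with called genes as filled points. Cebpb is the called regulator, to the right of 0, and 15 of the 16 male-biased genes lie to the left of 0.

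Other carriers of lipids and small molecules were counted in the same way. Of 17 lipocalins and carriers listed, 13 were tested, 1 was called higher, beside 1.37% of all genes, and 0 lower, beside 1.76%, in edgeR (2 had an unadjusted p under 0.05), and the median log2 fold change was 0.14. The called gene was Orm3, an acid glycoprotein, with 1.23, 2.88 and 3.43 CPM in vehicle and 9.27, 3.43 and 3.46 CPM in esculetin libraries, and it was not called in limma-voom, with the replicate block, without vehicle library 1, without vehicle library 2 or without esculetin library 1 (log2 fold change 0.46 against 1.1). Markers of other liver cells were summed in each library. Kupffer cell markers summed to 257 to 350 CPM in vehicle and 267 to 276 CPM in esculetin livers. Stellate cell markers summed to 306 to 354 CPM and 278 to 368 CPM. These are sums over 5 genes each, whereas the 65.2 to 214 CPM of Mup12 are those of a single gene, so the levels are not directly comparable. No marker was called among the hepatocyte, Kupffer cell, endothelial, stellate cell and cholangiocyte lists. The adipocyte list summed to 0 to 0.613 CPM and 0.894 to 1.19 CPM. Its 1 tested marker, Cfd, was called higher, beside 1.37% of all genes, and Lep had no counts. The groups did not overlap in this sum, which was low in every library. Of the blood cell lists, 1 of 5 tested erythroid markers (Hba-a2), 1 of 4 lymphocyte markers (Cd79a) and 1 of 2 neutrophil markers (S100a9) were called higher, beside 1.37% of all genes. The summed level of each of these lists overlapped between the groups, at 127 to 155 CPM in vehicle and 114 to 178 CPM in esculetin livers for the erythroid list, 2.48 to 3.3 and 2.85 to 4.45 CPM for the lymphocyte list, and 1.26 to 2.41 and 1.61 to 4.54 CPM for the neutrophil list. The part of these cells in the Mup values was not tested.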

How the data were processed

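Per the labels and the study's methods, the authors sequenced liver RNA as 150-bp paired-end reads, aligned them to GRCm39 with HISAT2 2.2.1 and counted them per gene with featureCounts. The deposited values are raw counts, not normalized. The annotation release, the strand setting and the treatment of multi-mapping reads are not given in the sources used here. Identifiers were matched to symbols in GENCODE vM39 (54749 of 55357). The members and lists were chosen with earlier results of these data known, and 1 gene of the list of regulators is not reported here.

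Counts were filtered with filterByExpr and tested with the edgeR 4.0.16 quasi-likelihood test (R 4.3.3) on TMM factors (0.979 to 1.02), esculetin against vehicle, after a check on simulated counts. Standard errors were obtained from the F values, and the 95% intervals use the t distribution of the fit. The biological coefficient of variation was 14.6%. DESeq2 1.42.0, limma-voom 3.58.1 and other scalings, filters and left-out libraries were alternatives. The p-values measure the spread between libraries of 2 pooled mice. A count of 3 corresponds to at most 0.107 CPM. Libraries of a group differed beyond sampling noise, so none was counted as a copy.

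Log2 CPM used a prior count of 2. Transcripts were those with coding length nearest the family median of 540. Coding sequences were aligned with Biopython 1.88 and MAFFT 7.526, and 150-base stretches were looked for in all annotated transcripts and in the surrounding part of chromosome 4. Named genes were the 7 members, the tested Mup rows, called or preset regulators, up to 6 called genes per other list by smallest p, the 5 most similar genes outside the family and the nearest gene of at least 1 CPM on each side of the cluster. Cell type markers named in the text were chosen after their values were seen.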

Additional observations from a re-analysis of the deposited data

How the results depend on the processing

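Mup11, Mup17 and Mup21 were called under DESeq2, limma-voom, every scaling, both other filters, thinning to the smallest total and the replicate block, and the number of members called ranged from 2 to 4 as each library was left out and was 2 at a fold change over 2. Of the alternative values for the 7 members, 98 kept their direction and their side of the rule, 1 lost a call, 2 gained a call and 4 changed sign. Over all genes, 452 were called, against 776 without a filter, 1711 without a fold threshold and 217 at a fold change over 2. The 6 genes with an adjusted p under 0.05 became 196 in DESeq2, 477 without a filter, where the prior degrees of freedom rose from 5.72 to 107, 15 with the replicate block and 2 to 45 as each library was left out. Other Mup genes called numbered 5 to 12 with a library left out, from 8. Regulators called numbered 0 under total counts, 4 without a filter, 2 without a fold threshold, 0 at a fold change over 2 and 0 to 3 with a library left out, from 1. Male-biased genes called numbered 4 in limma-voom, 11 without a fold threshold and 1 at a fold change over 2, from 7. Lipocalins and carriers called numbered 3 without a filter, 2 without a fold threshold, 0 with the replicate block and 0 to 3 with a library left out, from 1. Shares without overlap numbered 1 to 5 with a library left out, from 1. Groups separate more easily with fewer libraries, so these counts cannot be compared with the main one. Shares were computed for the 7 members alone, so there is no share over all genes to set beside them.

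The sign turned in 26 of the 895 alternative values for named genes. The log2 fold change of Mup3 was 0.0005 without a filter, that of Stat5b was -0.022 under total counts and -0.0011 with at least 10 counts in every library, that of Zhx2 was -0.01 under total counts and that of Cish was 0.0059 in limma-voom. With a library left out the log2 fold change ranged from -0.054 to 0.047 for Mup3, -0.26 to 0.06 for Mup20, -0.13 to 0.56 for Mup10, -0.47 to 0.026 for Mup13, -0.28 to 0.21 for Mup22, -0.28 to 0.15 for Mup-ps7, -0.032 to 0.25 for Mup-ps14, -0.27 to 0.67 for Mup-ps19, -0.057 to 0.046 for Stat5b, -0.065 to 0.081 for Zhx2, -0.22 to 0.14 for Thrb, -1.76 to 1.42 for Cish and -0.94 to 1.08 for Socs2. The causes were not tested.

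Libraries with the same replicate number did not deviate together (correlations -0.0689, -0.0108 and 0.00274), and none correlated best with its own number. With the replicate block 399 genes and the 3 members were called, and 6 other Mup genes. With 3 libraries a group, changes the size of those of Mup7 and Mup12 lay within the spread between libraries, and near-identical copies limit what single-gene values can show.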

Other observations

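Outside the family, the genes whose profile over the 6 libraries was most like that of the 7-gene sum were Tbc1d2b, Myh10, Mfsd6, Tmem9 and Gm8893, with root-mean-square differences of centred log2 CPM of 0.087, 0.091, 0.099, 0.10 and 0.11, among 7214 tested genes with a mean of at least 10 CPM. Tbc1d2b had 27.7, 31.9 and 38.7 CPM in vehicle libraries and 26.7, 28.3 and 20.5 CPM in esculetin libraries. None of the 5 was called. These genes were picked for their profile, so the likeness is a description.

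The nearest genes of at least 1 CPM beside the cluster were Snx30 on the proximal side and Slc31a2 on the distal side. Snx30, a sorting nexin gene, had 10.4, 9.05 and 10.3 CPM in vehicle libraries and 5.94, 9.6 and 7.02 CPM in esculetin libraries and was not called (log2 fold change -0.40, adjusted p = 0.425 in edgeR), except without esculetin library 2 (-0.61), and its value was -0.25 without esculetin library 1. Slc31a2, a copper transporter gene, had a log2 fold change of 0.11 (adjusted p = 0.811 in edgeR).

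Of the growth hormone responsive genes, Cish and Onecut1 set single libraries apart within both groups, and Socs2 in esculetin livers only. These genes were singled out after their values were seen. Cish, an inducible inhibitor of cytokine signalling, had 1.26, 0.89 and 14 CPM in vehicle libraries and 1.4, 1.73 and 5.46 CPM in esculetin libraries. Onecut1, the hepatocyte factor HNF6, had 1.53, 3.01 and 14.6 CPM and then 1.37, 1.21 and 12.6 CPM. Both were highest in vehicle library 3 and in esculetin library 3, which were the libraries with the highest and the lowest Mup7 level. Socs2, a growth hormone feedback inhibitor, had 28.2 CPM in esculetin library 3 and 3.49 to 9.34 CPM in the other 5 libraries.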
